A study of Homo sapiens with 7 samples.

Results

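The genes described here are the protein-coding genes of human chromosome 19 whose symbol is ZNF followed by digits. There were 240 of them among 19126 autosomal protein-coding genes in RefSeq (GRCh38.p14, which shares its coordinates with hg38). They were chosen by symbol, and the fingers of the proteins were not checked. Each was placed by its leftmost coordinate in a 50 kb bin of the Hi-C map (contacts between pairs of genome positions, counted by sequencing) of untreated DLD-1 cells, a line grown from a human colorectal tumour. For these cells the submitters had sorted bins by their contacts with k-means clustering and given the clusters 5 names, A1, A2, V+VI, B2/B3 and B4. Of the 240 genes, 224 started in a bin with a name. The study comprised 7 libraries with 1 library per group. DNMT1-AID cells were untreated, given auxin for 4 d, given auxin for 10 d, or given auxin for 4 d and then washed out for 4 d. DNMT1-AID cells with a DNMT3b -/- genotype were untreated or given auxin for 4 d or 10 d. All 7 libraries came from cells whose DNMT1, the enzyme that copies DNA methylation after replication, carries a degron that auxin triggers, so auxin itself and loss of DNMT1 cannot be told apart. The untreated knockout library is a knockout by its title only, since its genotype label names DNMT1-AID alone. Clusters were given for the untreated DNMT1-AID library, so the placement of genes was not followed over treatments.

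Most ZNF genes of chromosome 19 encode KRAB zinc finger proteins, in which an array of C2H2 fingers binds DNA and a KRAB domain recruits the corepressor TRIM28. TRIM28 brings in the histone methyltransferase SETDB1 and HP1 proteins, which place and bind the repressive mark H3K9me3, and many of these proteins are directed at transposable elements. The genes arose by tandem duplication and lie in rows of close paralogs. Their own bodies are known to carry H3K9me3, and in other Hi-C maps such rows form a separate inactive compartment called B4. In compartment naming, A stands for active and B for inactive chromatin.

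Most chromosome 19 ZNF genes lay in B4 or V+VI bins. The count was 115 in B4 (51.3% of the 224 with a name), 65 in V+VI (29.0%), 22 in A2 (9.82%), 14 in A1 (6.25%) and 8 in B2/B3 (3.57%). Over all 15931 autosomal genes with a name, 1.62% lay in B4, 26% in V+VI, 37.1% in A2, 26.2% in A1 and 9.13% in B2/B3. The V+VI share of the ZNF genes was thus near that of all genes. The V+VI name covered 13454 bins of the genome, and all 65 ZNF genes lay in 1 cluster of it, of 6517 bins. All 138 V+VI bins of chromosome 19 were in that cluster, so any V+VI gene of the chromosome had to lie in it. The share of all genes in that cluster alone was not counted. Among the 1084 other named genes of chromosome 19 the shares were 3.14% in B4, 7.01% in V+VI, 0.185% in B2/B3, 61.7% in A1 and 28% in A2. The rest of the chromosome was thus mostly A1 and A2. The 196 named ZNF genes of other autosomes had 32 members in B4 (16.3%) and 57 in V+VI (29.1%). The remaining 14427 named genes of other autosomes had 77 in B4 (0.534%). No test was made of these shares, because they come from 1 clustering of 1 library and neighbouring genes share bins.

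**Figure D1:**
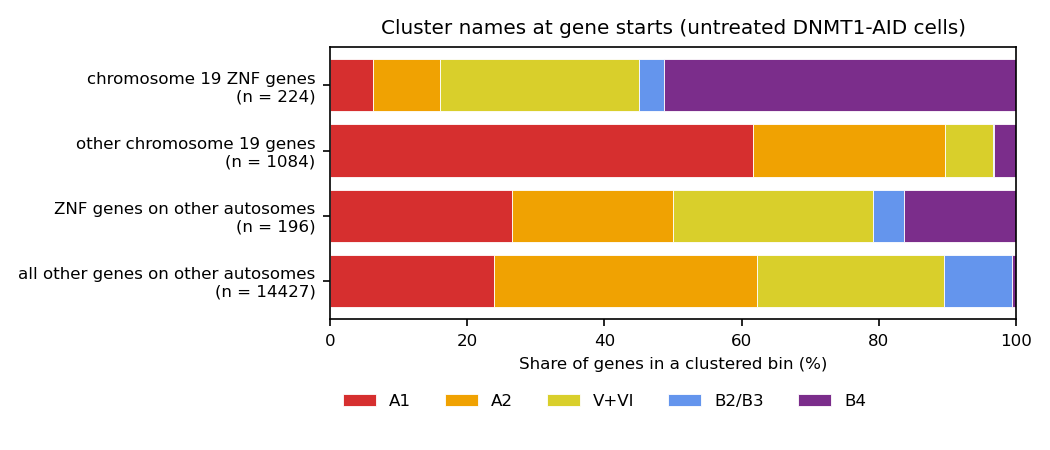
Stacked bars give the share of genes (%) whose start lay in a bin of each cluster name, for 4 gene sets, with the number of genes in a named bin in brackets. B4 held 51.3% of the chromosome 19 ZNF genes, 3.14% of the other genes of that chromosome and 16.3% of the ZNF genes elsewhere.

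The 240 genes started in 190 bins, and 44 bins held more than 1 of them. The fullest bin held 4, ZNF865, ZNF784, ZNF581 and ZNF580, and was named A2. Counted by bins, 92 of the bins with a ZNF start were B4, 50 V+VI, 15 A2, 12 A1 and 6 B2/B3, and 15 had no name. Read the other way, chromosome 19 had 154 of the 282 B4 bins of the genome (54.6%), or 7.7 Mb. Of these 154, 92 held the start of a ZNF gene and 118 held a start or part of the body of one. A further 34 genes of other names started in B4 bins of the chromosome. Among them, 12 had a symbol of a related family or one built on a ZNF symbol. The first kind were ZFP14, ZFP82, ZFP28, ZSCAN1, ZSCAN18, ZIM2, ZIM3 and PEG3. The second kind were ZNF559-ZNF177, ZNF765-ZNF761, ZNF470-DT and ZNF585B, which was outside the set because its symbol ends in a letter. Most of the 34 were of neither kind. They included the olfactory receptor family genes OR7D2, OR7E24 and OR7D4, the formyl peptide receptor genes FPR2 and FPR3, the vomeronasal receptor family genes VN1R1, VN1R2 and VN1R4, the retroviral envelope genes ERVV-1 and ERVV-2, the homeobox genes DPRX and DUXA, and AURKC, a kinase of germ cells. The other B4 bins lay on 15 chromosomes. They held 32 ZNF genes on 12 autosomes, of which chromosome 7 had 8 (among them ZNF107, ZNF138 and ZNF117), chromosome 12 had 7 (such as ZNF26, ZNF84 and ZNF268) and chromosome 3 had 5.

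Cut where neighbours start 1 Mb or more apart, the 240 genes formed 16 blocks along the short arm 19p and the long arm 19q. B4 genes were found in 7 of the 16, each with 15 to 57 members, and every one of these 7 also held V+VI genes. The 7 blocks had 221 of the 240 genes. The 9 blocks without a B4 gene held at most 5 genes each. Their 19 genes were 11 in A1, 5 in V+VI, 2 in B2/B3 and 1 in A2. On 19p, 44 of 71 named genes were B4 (62%) and 13 V+VI (18.3%). On 19q, 71 of 153 were B4 (46.4%) and 52 V+VI (34%).

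**Figure D2:**
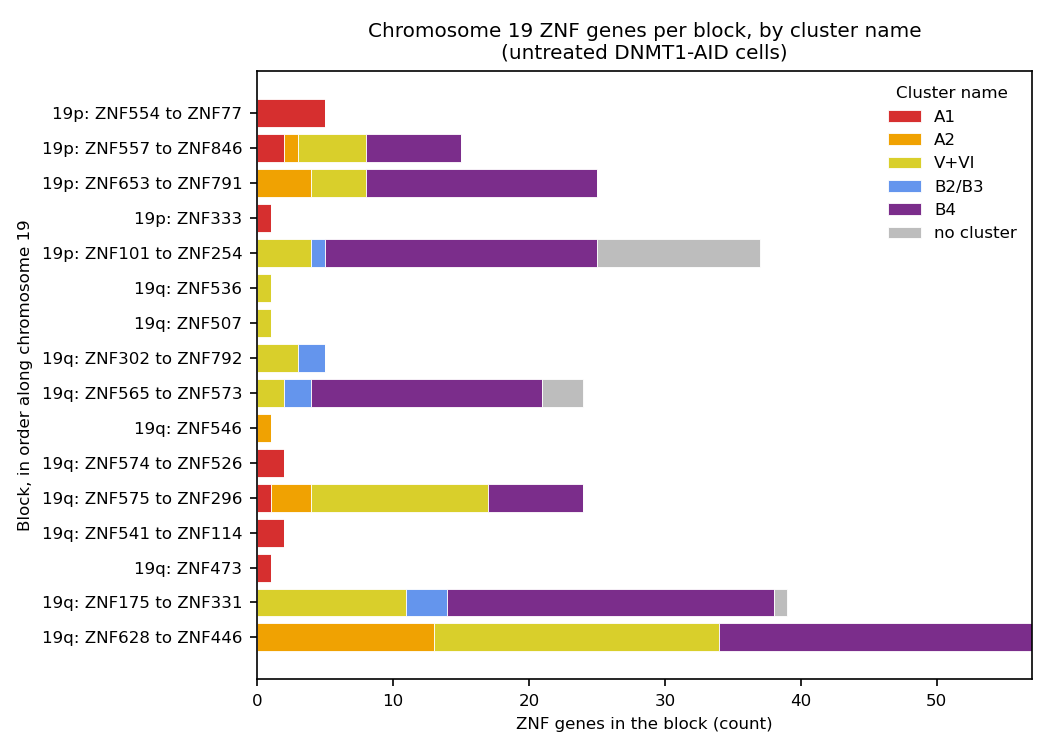
Each bar is 1 block of ZNF genes in order along chromosome 19, named by its first and last gene, and its coloured parts count the genes by cluster name. The 7 blocks with purple (B4) parts are the 7 with 15 genes or more, and each also has a V+VI part.

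On 19p the first block, ZNF554 to ZNF77 at 2.82 to 2.94 Mb, was A1 in all 5 genes. The next, ZNF557 to ZNF846 at 7.07 to 9.79 Mb, held 4 of the 5 names. ZNF557 and ZNF358 were A1, ZNF414 was A2, and ZNF558, a repressor of the mitophagy gene SPATA18, was V+VI with ZNF317. A row of 6 B4 genes followed, ZNF699, ZNF559, ZNF177, ZNF266, ZNF560 and ZNF426. After 3 V+VI genes, ZNF121, ZNF561 and ZNF562, the block ended on ZNF846 in B4.

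The block ZNF653 to ZNF791 at 11.5 to 12.6 Mb had 17 B4 genes of 25. It held the longest row of B4 genes in the set, 15 from ZNF440 to ZNF799 in 1 unbroken stretch of 12 B4 bins, chr19:11800001-12400000. Its outer genes had other names: ZNF653 and ZNF627 at the near end and ZNF791 at the far end were A2. Inside, ZNF441, ZNF491, ZNF564 and ZNF490 were V+VI and ZNF443 was A2. ZNF333, alone at 14.7 Mb, was A1.

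The block ZNF101 to ZNF254 at 19.7 to 24.1 Mb lies next to the centromere and is the home of the ZNF91 family. It had 20 B4 genes, 4 in V+VI, 1 in B2/B3 and 12 in bins without a name. These 12 were most of the 16 ZNF genes that could not be placed, among them ZNF90, ZNF85, ZNF208 and ZNF99. Its first and last genes, ZNF101 and ZNF254, were V+VI, as were ZNF43 and ZNF98, and ZNF429 was B2/B3. ZNF91 and ZNF93, which repress SVA and L1 retrotransposons, were both B4. Whether the similarity of these paralogs to each other bears on which bins got a name was not tested. Without this block 47.7% of the named ZNF genes of the chromosome were B4.

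On 19q the first genes beyond the centromere were V+VI: ZNF536, a repressor of neuronal differentiation and the longest of the set at 488 kb, and ZNF507. In the small block ZNF302 to ZNF792 the 5 genes were V+VI (ZNF181, ZNF30 and ZNF792) or B2/B3 (ZNF302 and ZNF599). The block ZNF565 to ZNF573 at 36.2 to 37.8 Mb had 17 B4 genes among its 21 named, 81.0%, next to 80% in ZNF101 to ZNF254. ZNF146, which consists of fingers without a KRAB domain, opened its B4 row. Its V+VI genes were ZNF565 and ZNF567, and ZNF540 and ZNF571 were B2/B3.

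The block ZNF575 to ZNF296 at 43.5 to 45.1 Mb differed from the other large blocks in its makeup, with 13 V+VI genes to 7 B4 genes. The 13 formed 1 row, chr19:43951228-44305025, in 7 bins: ZNF221, ZNF155, ZNF230, ZNF222, ZNF223, ZNF284, ZNF224, ZNF225, ZNF234, ZNF226, ZNF227, ZNF233 and ZNF235. ZNF224 is known as a repressor of the aldolase A gene. B4 genes stood on both sides of the row, ZNF283, ZNF404 and ZNF45 before it and ZNF112, ZNF285, ZNF229 and ZNF180 after it. The outermost genes were ZNF575, ZNF576 and ZNF428 in A2 and ZNF296 in A1.

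The smaller blocks nearby were A1 or A2. ZNF546 was A2. ZNF574 and ZNF526, ZNF541 and ZNF114, and ZNF473, a protein of histone mRNA processing, were A1.

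The block ZNF175 to ZNF331 at 51.6 to 53.6 Mb changed name most often, 15 times along 38 named genes. B4 had 24 of them, V+VI 11 and B2/B3 3 (ZNF649, ZNF615 and ZNF350, a partner of BRCA1). ZNF808, needed for pancreas development, and ZNF611, which binds SVA elements, were V+VI. Rows of B4 genes ran from ZNF766 to ZNF578 (7 genes) and from ZNF415 to ZNF765 (6 genes, leaving out ZNF677, which had no name). A row of 5 V+VI genes from ZNF468 to ZNF160 lay between ZNF28 and ZNF415, which were B4.

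The last and largest block, ZNF628 to ZNF446 at 55.5 to 58.5 Mb, held 57 genes, of which 23 were B4, 21 V+VI and 13 A2. The 13 A2 genes stood at its ends, 7 from ZNF628 to ZNF580 and 6 from ZNF497 to ZNF446. The longest stretch of B4 bins on the chromosome, 18 bins or 0.9 Mb at chr19:56350001-57250000, held 9 genes from ZNF582 to ZNF805, among them ZNF471 and ZNF264. A row of 12 V+VI genes in 7 bins ran from ZNF416 to ZNF814. ZNF274, a zinc finger protein that itself binds the finger-coding ends of ZNF genes and brings SETDB1 to them, was B4. TRIM28 begins 54.5 kb beyond the end of the last gene of this block, ZNF446, and both were A2.

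Neighbouring ZNF genes mostly had the same name, and no such count was made for other genes of the chromosome. Of 208 pairs of neighbouring named genes within a block, 150 had the same name. Of the 159 pairs whose genes lay in different bins, 101 did (63.5%), with 66 pairs of 2 B4 genes, 23 of 2 V+VI genes and 37 of 1 of each. The 154 B4 bins of the chromosome formed 46 stretches, 13 of them a single bin long. Moving every gene 1 bin to the left kept the name of 145 of 213 genes (68.1%), and 1 bin to the right kept 146 of 212 (68.9%). At these shifts 27 and 26 genes went from B4 to V+VI, and 22 and 23 went the other way.

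The deposited codes of 17 partitions, from 3 to 64 clusters, show when the B4 genes separate from the others. In the partitions into 3, 4, 5 and 6 clusters the code that held most B4 genes had 10449 to 19318 bins, and the B4 genes were split mainly between 2 codes. With 3 clusters, 56 of the 115 had the code whose bins were 94.8% B2/B3 and 59 the code whose bins were 65.8% V+VI and 30.5% A2. All 17 B4 genes of ZNF653 to ZNF791 had the V+VI-rich code, against 4 of the 20 in ZNF101 to ZNF254. The other 5 blocks were divided within themselves, with 4 of 7 B4 genes on the V+VI-rich code in ZNF557 to ZNF846, 9 of 17 in ZNF565 to ZNF573, 5 of 7 in ZNF575 to ZNF296, 11 of 24 in ZNF175 to ZNF331 and 9 of 23 in ZNF628 to ZNF446. With 7 clusters a code of 295 bins appeared that held all 115. With 9 clusters, from which the names were made, the B4 code had 282 bins, of which 154 (54.6%) lay on chromosome 19. With 10 clusters it shrank to 175 bins, 146 of them (83.4%) on chromosome 19, and kept 108 of the 115 genes. With 16 clusters it held 104 in 158 bins. With 20 clusters it widened to 187 bins and held 102, together with 10 V+VI and 2 B2/B3 genes. With 32 clusters it held 92 in 123 bins, of which 116 were on chromosome 19. With 64 clusters the largest group was 65 B4 genes in a code of 79 bins, 78 of them on chromosome 19, and no V+VI gene was in it. Another code of 151 bins then held 42 B4 genes together with 33 V+VI genes. All partitions describe the same library and are no replicates of each other.

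**Figure D3:**
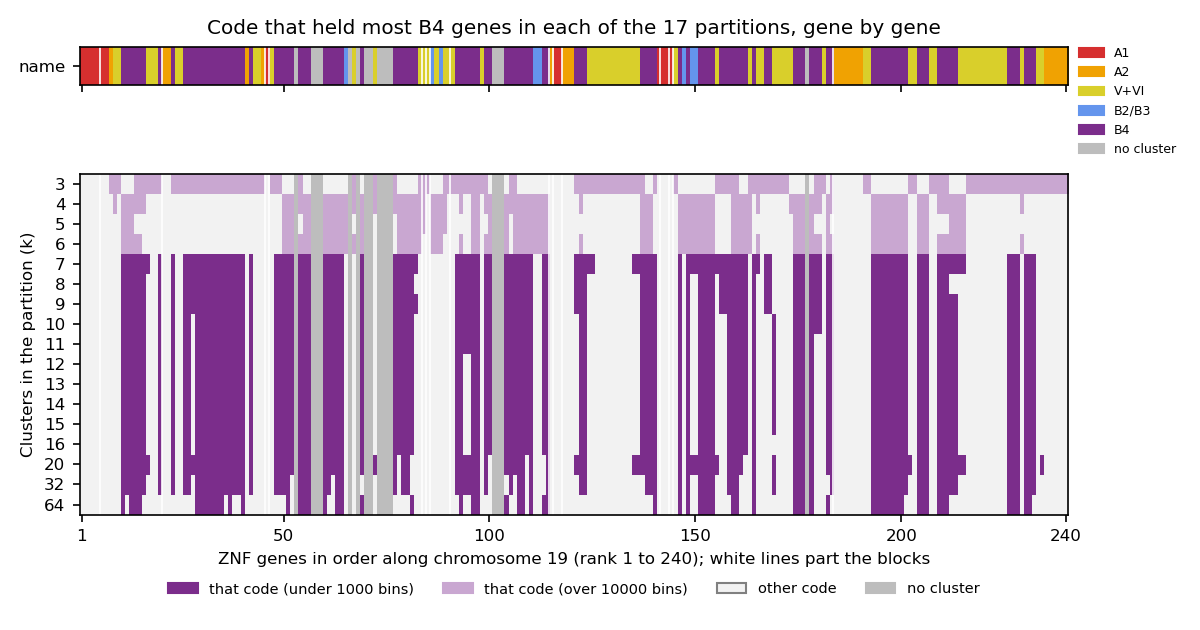
Columns are the 240 ZNF genes in order along chromosome 19, the top strip gives their cluster names, and each row below is 1 partition. Purple marks genes with the code that held most B4 genes, light where that code had over 10000 bins and dark where it had under 1000, and grey marks genes with no cluster. Dark purple appears at 7 clusters and thins towards 64, where 65 of the 115 B4 genes still shared it. The thinning is not steady: at 20 clusters dark purple also marks 10 V+VI and 2 B2/B3 genes.

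Of the 115 B4 genes, 60 had this code in each of the 13 partitions from 7 clusters on, and the median over all 115 was 13. These 13 include the partition into 9 clusters from which the names were made. There every B4 gene and no other gene had the code by construction. The block ZNF628 to ZNF446 had 19 of 23 such genes, whereas ZNF575 to ZNF296 had 1 of 7. The genes nearest the edge were ZNF726, with the code in 2 of 13 partitions, ZNF766, ZNF480, ZNF600 and ZNF28 with 3, and ZNF69, ZNF283, ZNF525 and ZNF765 with 4. ZNF260 and ZNF529 followed with 7. Just outside stood ZNF468, named V+VI but with the B4 code in 8 of 13. A further 12 V+VI genes had it in 1 or 2, and the other 52 in none. ZNF350 and ZNF615 of B2/B3 had it in 2. None of the 14 A1 and 22 A2 genes had it. With 7 clusters, 9 V+VI genes shared the code with B4: ZNF121, ZNF221, ZNF155, ZNF233, ZNF235, ZNF836, ZNF83, ZNF416 and ZNF530. ZNF221, ZNF155, ZNF233 and ZNF235 are the first and last pairs of the row of 13 V+VI genes described above, next to its B4 neighbours.

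Promoter sequences show how alike the groups are in CpG, the dinucleotide that DNMT1 and DNMT3B methylate. The 250 bases before the transcription start were taken from RefSeq (GRCh38.p14) for 210 of the 240 genes. The 6 sequences below are written on the strand of the gene, 5′ to 3′, with CpG in capitals. The first 4 are the genes whose CpG count was nearest the median of their group, for B4 (ZNF260, chr19:36528272-36528521, minus strand), V+VI (ZNF561, chr19:9621233-9621482, minus), A2 (ZNF546, chr19:39996810-39997059, plus) and A1 (ZNF555, chr19:2841225-2841474, plus). The last pair, chosen after their values were seen, has the fewest and the most CpG among B4 genes (ZNF404, chr19:43883965-43884214, minus, and ZNF667, chr19:56477346-56477595, minus). Where genes tied for nearest to the median, the leftmost was taken. The B4 gene so taken, ZNF260, had the B4 code in only 7 of the 13 partitions counted above. In all 6 genes the bin of the transcription start had the same name as the bin used for placement.
ZNF260: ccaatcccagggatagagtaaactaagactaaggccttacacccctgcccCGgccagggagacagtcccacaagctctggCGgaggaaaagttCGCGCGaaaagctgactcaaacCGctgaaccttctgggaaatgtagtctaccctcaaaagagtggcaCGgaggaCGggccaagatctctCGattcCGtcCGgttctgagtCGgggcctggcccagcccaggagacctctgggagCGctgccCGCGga
ZNF561: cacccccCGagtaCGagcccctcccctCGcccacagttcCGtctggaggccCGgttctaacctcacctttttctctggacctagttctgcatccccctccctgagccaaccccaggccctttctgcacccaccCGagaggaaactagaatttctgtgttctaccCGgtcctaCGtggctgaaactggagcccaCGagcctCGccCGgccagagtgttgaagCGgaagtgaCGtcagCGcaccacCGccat
ZNF546: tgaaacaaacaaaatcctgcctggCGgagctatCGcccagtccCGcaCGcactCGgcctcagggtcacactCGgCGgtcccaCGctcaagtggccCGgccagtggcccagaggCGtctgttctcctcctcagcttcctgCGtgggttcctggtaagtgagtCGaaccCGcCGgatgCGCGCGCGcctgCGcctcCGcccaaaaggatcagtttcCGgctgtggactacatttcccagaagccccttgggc
ZNF555: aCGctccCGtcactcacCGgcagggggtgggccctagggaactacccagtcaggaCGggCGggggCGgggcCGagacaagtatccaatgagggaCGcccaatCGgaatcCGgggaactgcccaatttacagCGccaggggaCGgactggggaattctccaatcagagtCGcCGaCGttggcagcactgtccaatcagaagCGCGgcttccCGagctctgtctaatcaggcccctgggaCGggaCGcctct
ZNF404: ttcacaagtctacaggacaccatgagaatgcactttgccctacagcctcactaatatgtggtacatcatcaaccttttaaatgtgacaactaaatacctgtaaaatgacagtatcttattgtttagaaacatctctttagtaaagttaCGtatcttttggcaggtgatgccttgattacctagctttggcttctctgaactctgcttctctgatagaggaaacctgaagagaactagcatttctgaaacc
ZNF667: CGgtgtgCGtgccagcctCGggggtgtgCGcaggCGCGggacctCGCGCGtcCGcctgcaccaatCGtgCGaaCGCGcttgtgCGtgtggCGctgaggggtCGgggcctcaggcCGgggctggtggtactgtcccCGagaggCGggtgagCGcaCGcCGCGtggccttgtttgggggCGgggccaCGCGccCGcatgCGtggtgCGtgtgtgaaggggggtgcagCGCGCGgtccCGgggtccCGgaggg

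ZNF260 and ZNF561 both have 15 CpG, ZNF546 has 21 and ZNF555 has 20, while ZNF404 has 1 and ZNF667 has 35. The medians were 15 CpG in B4 (interquartile range 11 to 19.5, n = 103), 15 in V+VI (12 to 20.3, n = 56), 21 in A2 (18 to 28, n = 21) and 20 in A1 (15 to 23.8, n = 12). B4 and V+VI genes thus had the same median, and the A2 and A1 medians were higher. Over the 15101 autosomal genes with a sequence the median was 17, and the interquartile range was 6 to 26, a wider span than in any of these 4 groups. The other genes of chromosome 19 in V+VI bins had a median of 8 (n = 66). The ZNF genes of other autosomes had 13.5 in B4 (n = 30) and 21.5 in V+VI (n = 46). By block, the B4 median was higher than that of V+VI in 2 of 7 blocks, lower in 4 and equal in 1. The G+C content was 58.8% in B4, 59.2% in V+VI, 64% in A2 and 63.6% in A1.

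B4 genes had a longer median length than V+VI, A1 and A2 genes and fewer other genes nearby, but not than B2/B3 genes or those without a name. The median length was 26.1 kb in B4 (n = 115), 19 kb in V+VI (n = 65), 17.2 kb in A1, 9.51 kb in A2, 26.5 kb in B2/B3 (n = 8) and 36.5 kb in genes without a name (n = 16). The median number of other protein-coding starts within 250 kb was 11 for B4, 14 for V+VI, 13.5 for A1, 20 for A2, 9.5 for B2/B3 and 4 for genes without a name. Within blocks the difference in length between B4 and V+VI did not keep its direction: the B4 median was higher in 3 of 7 blocks and lower in 4. The count of nearby genes was lower for B4 in 5 of 7. B4 genes lay a median of 650 kb from the nearest A1 or A2 bin and V+VI genes 450 kb, farther for B4 in 4 of 7 blocks. Of the genes with a sequence, 49 of 103 in B4 and 33 of 56 in V+VI were on the plus strand. In A2 it was 12 of 21, in A1 9 of 12 and in B2/B3 3 of 6. The gene counts of the groups are small within single blocks, and no test over genes was made.

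**Figure D4:**
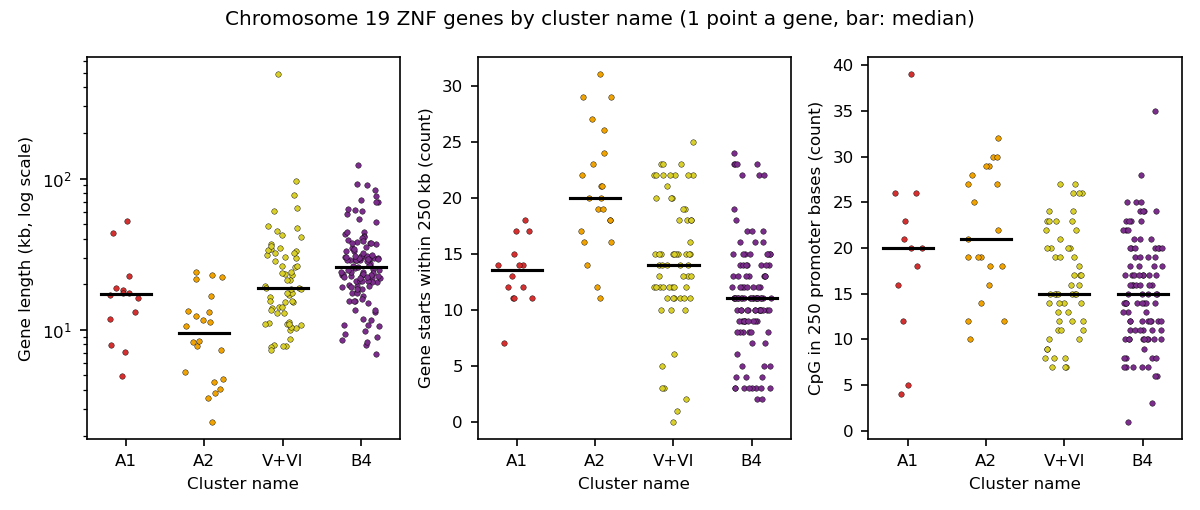
Each point is 1 ZNF gene of chromosome 19, by cluster name, and the bars are medians, for gene length (kb, log axis), the number of other protein-coding gene starts within 250 kb, and CpG in the 250 bases before the start. B4 and V+VI share a median of 15 CpG, while A2 genes are short (9.51 kb) and lie in the most gene-dense places (20 starts).

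None of the genes in the lists of KRAB cofactors and of 4 other gene families of the chromosome started in a B4 bin, although genes of other families did, as named above. B4 held 1.62% of all named autosomal genes and 3.14% of the other named genes of chromosome 19, so none in lists this short is near these shares. For A2 the 2 shares were 37.1% and 28%, for A1 26.2% and 61.7%, and for V+VI 26% and 7.01%. Of 21 genes for KRAB cofactors, H3K9 methylation and DNA methylation, 17 had a name: 8 were A2, 6 A1 and 3 V+VI (ATF7IP, PPHLN1 and SMARCAD1). On chromosome 19 these are TRIM28 and DNMT1 in A2 and UHRF1, which guides DNMT1 to hemimethylated DNA, in A1. All 15 kallikrein genes (KLK), which encode secreted proteases, were A2. Of the 13 SIGLEC family genes, receptors for sialic acid, 7 were V+VI, 4 A2 and 2 A1. Of 22 PSG and CEACAM genes, for cell adhesion and pregnancy proteins, 11 had a name, 7 of them A2. None of the 12 LILR and LAIR genes, leukocyte receptors, lay in a named bin. Of the 1211 genes of chromosome 19 outside the ZNF set, 127 had no name.

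The contact tables of all 7 libraries hold sums over chromosome arms and no value for single genes. What they give is the contact of 19p, of 19q and between both arms at the separations at which the 92 B4 bins with ZNF starts lie from each other. These averages take in every bin pair of the arm at that separation, so a part played by the ZNF bins was not tested. Contact is given as balanced contact per bin pair times 10000, weighted by the number of B4 bin pairs at each separation.

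Contact at the separations between different ZNF blocks was lower after auxin in DNMT1-AID cells. On 19p (439 bin pairs, 2 to 14.7 Mb apart) it was 3.72 in untreated cells, 2.94 after 4 d, 2.78 after 10 d and 3.50 after washout. The log2 ratios to untreated cells were -0.34, -0.42 and -0.091. The first 2 values lay below those of all 39 other arms measured at the same separations, whose medians were -0.049 and -0.091, and the washout value lay above 4 of 39. With raw counts over the arm total in place of balanced contact the 10 d ratio was -0.27 and the washout ratio -0.025. On 19q (1061 bin pairs, 2.85 to 21.95 Mb) contact was 2.98 untreated, 2.45 after 4 d, 2.41 after 10 d and 2.88 after washout, with log2 ratios of -0.28, -0.31 and -0.051. The first 2 lay below all 37 other arms, whose medians were -0.080 and -0.074, and 8 of 37 lay below the washout value. With raw counts the 10 d ratio was -0.17 and the washout ratio turned to 0.00020. Between the arms (2052 pairs, 12.3 to 48.9 Mb) contact was 1.49 untreated, 1.02 after 4 d, 1.05 after 10 d and 1.52 after washout, with log2 ratios of -0.55, -0.50 and 0.026 (-0.57, -0.33 and 0.092 with raw counts). Contact between the arms of other chromosomes was not compared. The 4 d and 10 d libraries were thus low at all 3 kinds of separation and the washout library was close to the untreated one.

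In cells without DNMT3B the same contacts were already lower without auxin than in DNMT1-AID cells, and their ratios to the untreated library were nearer 0. On 19p they were 3.09 untreated, 2.78 after 4 d and 2.86 after 10 d. On 19q they were 2.38, 2.28 and 2.36, and between the arms 1.20, 1.04 and 1.06. The log2 ratios to the untreated knockout were -0.15 and -0.11 on 19p, -0.066 and -0.015 on 19q and -0.20 and -0.17 between the arms. Both 19p ratios lay below those of all 39 other arms, and 1 of 37 lay below each 19q ratio. With raw counts the 3 ratios at 10 d turned to 0.14, 0.15 and 0.034. The difference between the genotypes was not tested, and other arms were not compared between the untreated libraries.

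At the separations within a block (0.1 to 4.2 Mb on 19p, 0.1 to 1.8 Mb on 19q) the ratios of DNMT1-AID cells were 0.11 on both arms after 4 d, against medians of 0.068 and 0.074 over 40 other arms, of which 39 and 38 lay lower. After 10 d they were -0.10 on 19p and -0.093 on 19q, against a median of -0.11 for both, with 28 and 34 of 40 arms lower. After washout they were -0.046 on 19p and -0.042 on 19q. The 19p value was level with the lowest of the 40 other arms, both -0.0455 when rounded, and the 19q value lay above 6 of 40. All 4 of these 10 d and washout ratios turned positive with raw counts. In knockout cells the ratios were 0.090 on 19p and 0.047 on 19q after 4 d, above 40 and 35 of 40 arms. After 10 d they were -0.17 on 19p, which turned to 0.032 with raw counts, and -0.18 on 19q, which went to -0.044. The balanced ratios lay above 35 and 29 of 40 other arms, whose medians were -0.20 and -0.19. At the separations within blocks, contact of both arms after 4 d was thus higher than untreated in both genotypes. The medians of the other arms were then positive as well. At the separations between blocks, contact of both arms was lower. These are values of whole arms, and contact of the ZNF blocks themselves was not measured. Depth differed between libraries, from 19945483 contacts within arms after washout to 169521755 after 4 d, and in the washout library 11496 raw contacts lay behind the 19p value between different blocks and 96164 behind that within blocks. With 1 library per group none of these differences could be set against the spread of replicates.

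**Figure D5:**
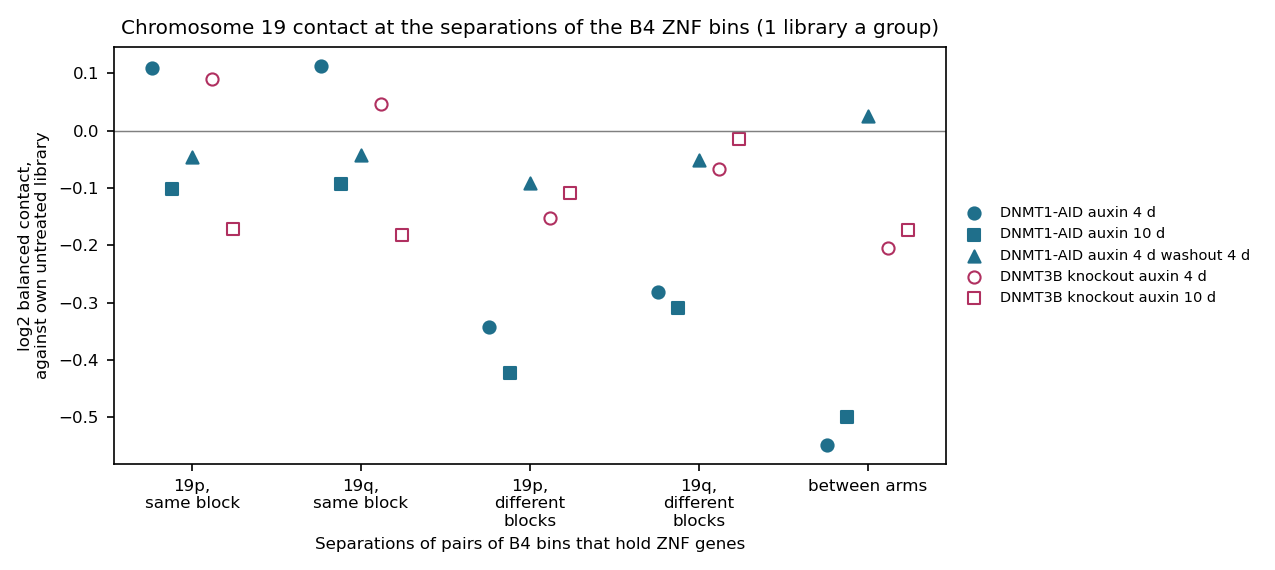
Points give the log2 ratio of balanced contact on chromosome 19 to the untreated library of the same genotype, at the separations of pairs of B4 bins with ZNF genes; each point is 1 library. The DNMT1-AID libraries after 4 d and 10 d of auxin lie lowest between different blocks (-0.28 to -0.42) and between arms (-0.55 and -0.50), and the washout library lies near 0.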

How the data were processed

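Hi-C libraries were made with an Arima kit per the labels' protocols and aligned to hg38; the submitters' processing notes name BWA. Its version and the balancing program are not given in the sources at hand. The deposited cluster names and codes are categories per 50 kb bin of the untreated DNMT1-AID library. Each name was a union of codes of the 9-cluster partition, tested on the files, and bins with the highest code of a partition had no name. The deposited count values are raw contacts, per the file headers. The signal deposited beside them is balanced contact, summed by the authors over valid bin pairs at each separation, from 100 kb on.

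Genes were placed by their leftmost coordinate, since the gene table has no strand. Blocks were parted where starts lay 1 Mb or more apart. Other arms entered the contact comparison with at least 50 valid bin pairs at every separation used. In each block the first and last genes, the genes at changes of name, those with a minority name and those nearest the median CpG count were to be named; a few more were named after their values were seen. The planned count of zinc fingers per protein was not run, so zinc finger content was not checked. Placement was tested on simulated data, in which 200 of 200 genes and 5 of 5 blocks were recovered. The gene set and lists were chosen with earlier results of these data known. Python 3.11.15, pandas 2.3.3 and scipy 1.17.1 were used. No test between groups was made, with 1 library per group. Alternatives covered the placement, the gene set, the block gap, the partition and raw counts.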

Additional observations from a re-analysis of the deposited data

How the results depend on the processing

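The share of ZNF genes in B4 ran from 47.7% to 52.6% over 10 alternatives, inside the 95% exact binomial (Clopper-Pearson) interval of the main value, 44.6% to 58.1%, and the V+VI share from 27.1% to 30.9%. That interval treats genes as independent, which neighbours are not. The alternatives take mostly the same genes, so a share inside it says little of whether single names hold. Shifts by 1 bin to the left and to the right kept 145 of 213 and 146 of 212 names. Placement by the transcription start kept the name of 177 of 194 genes, and the name over most of the gene body kept 204 of 222. With a gap of 2 Mb there were 10 blocks in place of 16. The median CpG counts of B4 and V+VI stayed between 15 and 15.5. Alternatives that left out the ZNF101 to ZNF254 block or the genes without a promoter sequence, took symbols ending in a letter, or used the name at the transcription start for CpG were chosen after seeing the data.

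Raw counts over the arm total (for contact between arms, over the total of both arms) were the alternative for the log2 ratios of contact. The ratios are those of whole arms at the separations between arms, between blocks and within blocks. For DNMT1-AID cells at 10 d they were -0.33 between arms, -0.27 and -0.17 between blocks on 19p and 19q, and 0.028 and 0.030 within blocks. At 4 d they were 0.072 and 0.079 within blocks. After washout they were 0.092 between arms, -0.025 and 0.00020 between blocks, and 0.027 and 0.017 within blocks. For knockout cells at 10 d they were 0.034 between arms, 0.14 and 0.15 between blocks, and 0.032 and -0.044 within blocks. The cause was not tested. The count and spacing of zinc fingers and the gene set limited to proteins with a finger were not run. No paired analysis was possible because each group holds 1 library; leaving out replicates was not possible either. Depth limits the washout library most.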
